A study of Gallus gallus with 8 samples.

Results

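The genes described here encode proteins of the cytosolic ribosome and some paralogues of these proteins. They were taken from the array annotation by symbol (RPL or RPS followed by a number, with the usual suffixes, and RPLP0, RPLP1, RPLP2 and RPSA), and each gene was represented by the probe set with the highest mean over all arrays. This gave 66 genes of the 13049 that have a probe set with a single gene name, 43 of the large subunit and 23 of the small subunit. The series holds 8 Affymetrix chicken arrays with 2 arrays in each of 4 groups, and the samples are given as F1 oocytes of hens, taken 24 h before ovulation. DPF+ and DPF- hens belong to lines selected in opposite directions, with different fertility. HG+ and HG- hens belong to 1 line and also differ in how fertile they are. The study asked which genes differ within each pair. No age, treatment or number of birds is given, and all hens had the same light, feed and temperature. The arrays of a group are described as biological replicates with nothing more about birds or pools, so the p values measure the spread between these arrays, which may be partly technical.

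A ribosome reads the mRNA on its small subunit and joins amino acids on its large subunit, and its rRNA core is covered by proteins made in nearly equal numbers. Most ribosomal protein mRNAs of vertebrates start with an oligopyrimidine tract, through which mTOR signalling sets how strongly they are translated. A growing oocyte stores ribosomes for the embryo, and the granulosa cells around it make their own.

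Of the 66 genes, 63 were tested, which required a log2 value of at least 4 on at least 2 arrays. Each of the 63 was at 6.35 or higher on all 8 arrays, so none entered through a single group. The 3 others were RPL31, a large subunit protein with a mean log2 value of 3.65, RPS13, a small subunit protein with 3.49, and RPL3L, the muscle paralogue of RPL3 in mammals, with 2.22. RPL31 passed 4 on 1 array only, the second DPF- array at 4.28. RPL3L lay between 2.21 and 2.25 on every array. These values belong to the probe sets on this array and do not show that RPL31 or RPS13 mRNA was missing.

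The log2 levels of the tested genes were high, with means over the 8 arrays that ran up to 13.17. The highest 5 were RPS20 (13.17), RPS3A (13.14), RPL38, RPL32 and RPL19 (12.69 each). The lowest 5 were RPLP2 (9.83), RPL23 (9.52), RPL7L1 (8.98), RPL22L1 (8.85) and RPS27L (6.64). Of these, RPL7L1, RPL22L1 and RPS27L are paralogues of core proteins. Probe sets differ in how brightly they report a transcript, so this order is not one of mRNA amounts.

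Granulosa cell RNA was present on every array. All 12 granulosa markers on the list passed the filter, with mean log2 levels of 12.13 for the steroid dehydrogenase HSD3B1, 11.50 for the luteinizing hormone receptor LHCGR and 11.04 for the transcription factor FOXL2. Of the 12 oocyte markers 8 passed, led by DAZL at 7.38, while GDF9, BMP15 and DDX4 stayed at 2.72, 2.52 and 2.50. These 3 oocyte markers were thus below the filter on these probe sets, and the levels below are those of samples with abundant granulosa RNA. In such bulk samples, fewer cells of a type and less RNA per cell cannot be told apart. Haemoglobin probe sets lay between 2.24 and 2.48. Of 12 red blood cell markers listed, 7 were on the array and 1 passed the filter. Of 10 leukocyte markers 1 passed (CD74, 8.54).

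The ribosomal protein genes varied little. The pooled SD between replicates had a median of 0.175 over the 63 genes, against 0.27 over all 12725 tested probe sets. The range over the 8 arrays had a median of 0.49, against 0.95 over all tested probe sets. Most of these genes were bright, while all tested probe sets reach down to the filter. The part of brightness in this and the later comparisons of spread was not tested. The narrowest range was that of RPL38 (0.22) and the widest was that of RPL21 (1.17), followed by RPL7A (1.10), RPS16 (1.04) and RPL35A (1.02).

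**Figure D1:**
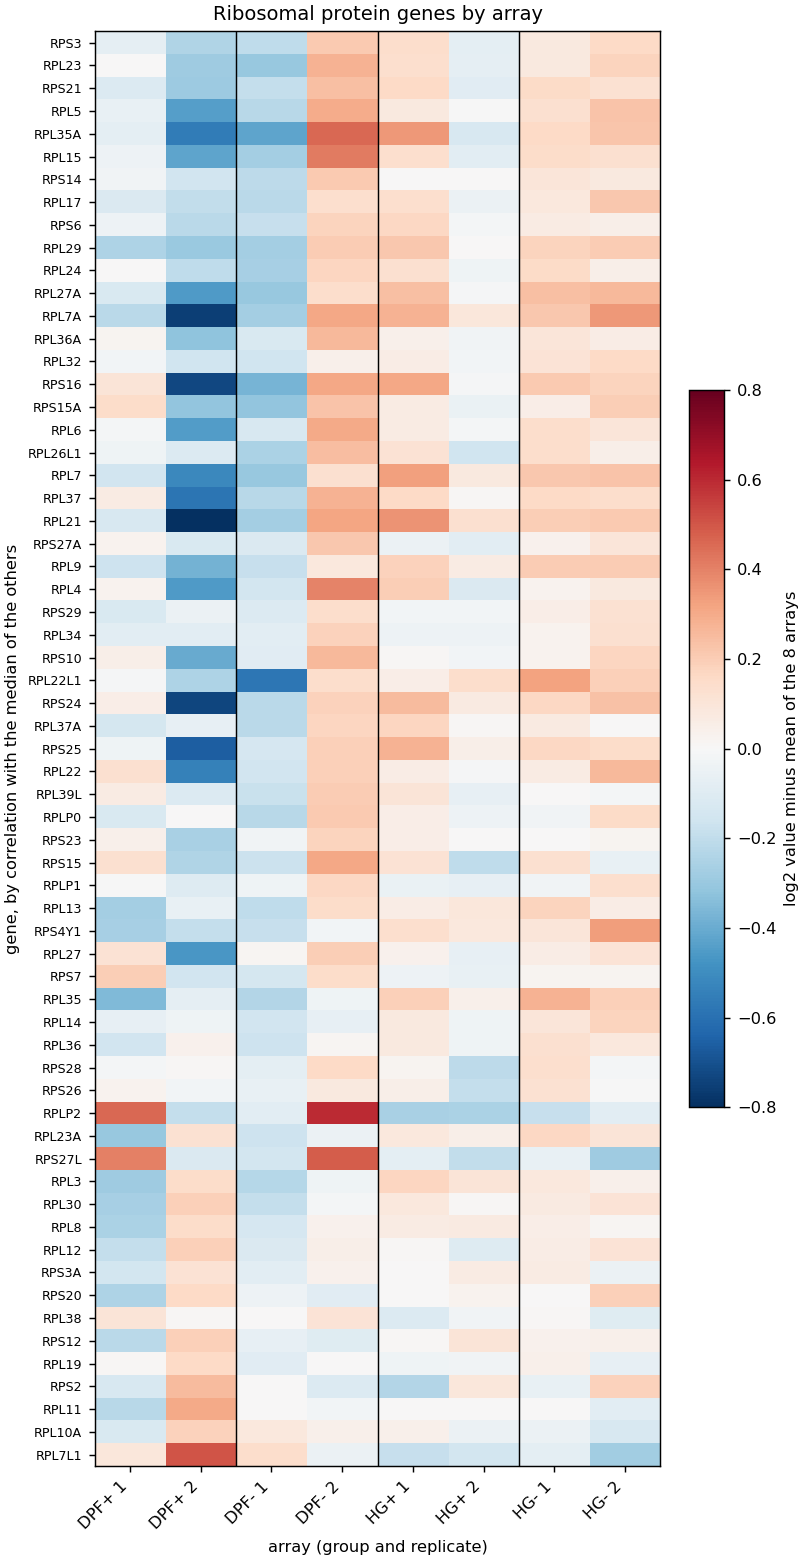
Each row is 1 of the 63 tested genes and each column 1 array, coloured by the log2 value minus the gene's mean over the 8 arrays, with rows ordered by their correlation with the median of the other genes. The second DPF+ array holds most of the deep blue, and the second DPF- array is red for most of the upper rows.

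The replicates of the DPF groups differed more than those of the HG groups. Subtracting each gene's mean over the 8 arrays gave median deviations of -0.04 and -0.16 for DPF+, -0.17 and 0.17 for DPF-, 0.06 and -0.02 for HG+, and 0.08 and 0.11 for HG-. The second DPF- array was the highest of all arrays for 31 genes, and the second DPF+ array was the lowest for 30. Across all tested probe sets the medians of the same measure lay between -0.11 and 0.05. Those of the second DPF+ and second DPF- arrays were 0.00 and -0.09, so the ribosomal protein genes did not follow the general shift there. This was not particular to them. Among other mRNAs with an oligopyrimidine start, EEF1A1, EEF1B2, EEF1D, EEF1G, EEF2, EIF3F, TPT1, NPM1 and NAP1L1 fell in DPF+ and rose in DPF-, from first to second array. PABPC1, NACA and HNRNPA1 went the opposite way in both groups, and the rest were mixed.

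**Figure D2:**
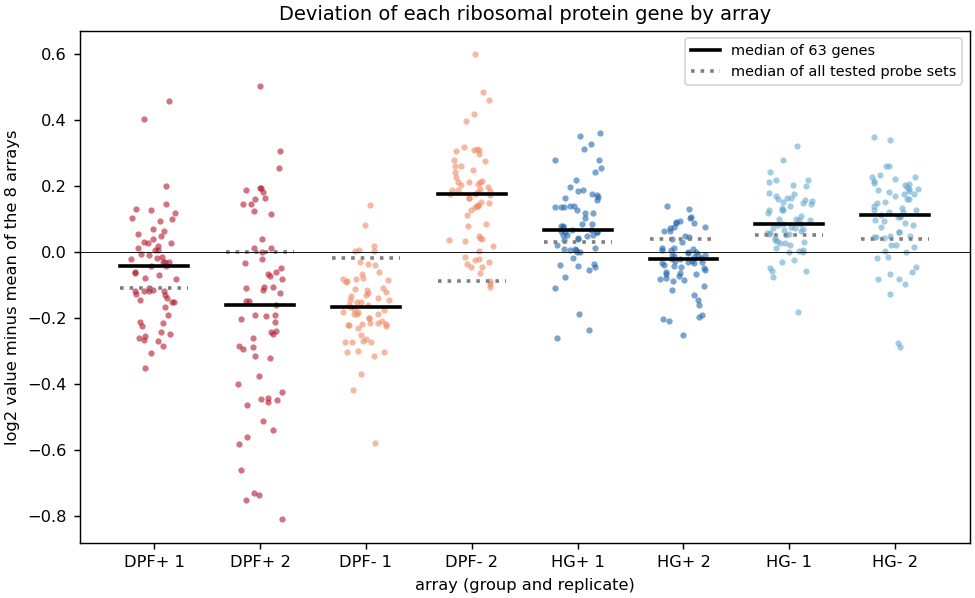
Each point is 1 gene on 1 array, drawn as its log2 value minus its mean over the 8 arrays, with a solid line at the median of the 63 genes and a dotted line at the median of all tested probe sets. The solid line stands at -0.17 on the first DPF- array and at 0.17 on the second, and the points of the second DPF+ array spread most widely.

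The replicates of DPF- differed in 1 direction. The second array was above the first for 57 genes and below it for 6, with a median log2 difference of 0.35 and an SD across genes of 0.219. It reached 0.88 for RPL35A, 0.72 for RPL22L1, 0.69 for RPL15 and 0.68 for RPS16 and RPLP2. Among all tested probe sets the second DPF- array was above the first for 42.8%. The HG replicates stayed closer, with a median log2 difference of -0.10 in HG+ and 0.00 in HG- and SDs across genes of 0.129 and 0.106.

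The replicates of DPF+ split the genes instead. The second array was below the first for 40 genes and above it for 22, with a median log2 difference of -0.15 and an SD across genes of 0.359. Over all tested probe sets 55.2% were higher on the second DPF+ array, with a median of 0.10 and an SD of 0.746. The lowest differences were -0.83 for RPS16, which reaches the P site of the small subunit, -0.79 for RPS24, -0.68 for RPL21, -0.67 for RPL22, and -0.65 for RPL37 and the stalk protein RPLP2. The highest were 0.53 for RPL11, which binds 5S rRNA, 0.46 for RPL30, and 0.43 for RPL3, a neighbour of the peptidyl transferase centre, and for RPL23A, a protein at the exit of the nascent chain tunnel. RPS20, RPS12 and RPL7L1 followed at 0.41 and RPL8 at 0.40.

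Ribosomal proteins shared with bacteria and those that are not showed the split to different extents. Of the 25 shared proteins, 11 were higher and 14 lower on the second DPF+ array, with a median log2 difference of -0.08. Of the 38 others, 11 were higher and 26 lower, with a median of -0.17. On the second DPF- array 21 of the 25 and 36 of the 38 were higher, with medians of 0.35 and 0.34. Each of these differences rests on 1 pair of arrays and was not tested.

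The genes moved together over the arrays. Over the 1953 pairs of genes, Pearson's r across the 8 arrays had a median of 0.52, and 75.8% of pairs were above 0. These points share the arrays and their normalization. No r was computed over all tested probe sets, so it is not shown whether moving together is particular to these genes. Against the median of the other genes, 46 genes had r above 0.5, led by RPS3 (0.98), RPL23 (0.97), RPS21, RPL5 and RPL35A (0.96 each). The 8 genes below 0 were RPL7L1 (-0.78), RPL10A (-0.50), RPL11 (-0.44), RPS2 (-0.41), RPL19 (-0.29), RPS12 (-0.21), RPL38 (-0.08) and RPS20 (-0.05). All of these but RPL38 were higher on the second DPF+ array than on the first.

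Several measures differed among the arrays, not all of them between the replicates that differed above, and their part in the pattern was not tested. The RNA amounts given were 10.5 and 9.1 µg for DPF+, 10 and 13.3 µg for DPF-, 12.4 and 10.2 µg for HG+, and 9.9 and 8.8 µg for HG-. The log2 difference between 3' and 5' control probe sets, which grows with shortened RNA or incomplete amplification, was 1.82 and 1.86 for DPF+, 1.54 and 1.33 for DPF-, 1.15 and 1.17 for HG+, and 1.10 and 1.04 for HG-. The DPF mean was 1.64 ± 0.25 and the HG mean 1.12 ± 0.06 (SD, n = 4 each), with an exact two-sided permutation p of 0.0286, the smallest that 70 splits allow. This test takes the 4 arrays of a source as interchangeable. Within DPF the means were 1.84 for DPF+ and 1.44 for DPF-, so the DPF SD also holds a difference between lines. The log2 of the summed granulosa markers was 14.14 and 13.29 on the DPF+ arrays, 13.80 and 14.12 on the DPF- arrays, and between 13.85 and 14.18 on the HG arrays. That of the oocyte markers was 8.22 and 9.19 on the DPF+ arrays, 8.95 and 8.05 on the DPF- arrays, and between 8.65 and 8.87 on the HG arrays. The second DPF+ array, lowest for many ribosomal protein genes, thus had the lowest granulosa and the highest oocyte sum. Such a sum is set mostly by the brightest markers. FSHR, AMH, GATA4 and FST were higher on the second DPF+ array than on the first, and the other granulosa markers were lower. The sum therefore does not show a shift of the granulosa list as a whole.

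In DPF+ against DPF-, the line comparison, no ribosomal protein gene passed the 5% threshold of adjusted p, and neither did any other probe set (0 of 63 genes, 0.0% of all tested). At an unadjusted p under 0.05 there were 0 of the 63 genes and 6.14% of all tested probe sets. The log2 changes ran from -0.50 to 0.25 with a median of -0.10, against 0.02 over all tested probe sets, and 47 of the 63 genes (74.6%) were below 0, against 47.1%. The large subunit had a median of -0.12 and the small subunit -0.10. Leaving out the first DPF- array moved the median to -0.29 and leaving out the second DPF- array moved it to 0.05. With the RNA amount as a covariate the median was 0.02, with 28 of the 63 genes below 0. Without the first DPF+ array 46 of the 63 genes were below 0.

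RPL7A, a large subunit protein, had log2 levels of 10.45 and 9.91 on the DPF+ arrays, against 10.39 and 10.97 on the DPF- arrays. The second DPF+ array was the lowest and the second DPF- array the highest, and the groups overlapped. The log2 change was -0.50 (SE 0.26, limma adjusted p = 0.872), with a 95% interval from -1.09 to 0.09. RPL21, another large subunit protein, had log2 levels of 10.63 and 9.95 on the DPF+ arrays, against 10.49 and 11.08 on the DPF- arrays, and showed the same order of arrays. Its log2 change was -0.50 (SE 0.28, limma adjusted p = 0.882), from -1.14 to 0.15.

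RPS25, a small subunit protein needed for initiation on some viral mRNAs in human cells, had log2 levels of 11.76 and 11.13 on the DPF+ arrays, against 11.66 and 11.98 on the DPF- arrays, and a change of -0.37 (SE 0.23, limma adjusted p = 0.894). RPL6, of the large subunit, had 11.60 and 11.17 on the DPF+ arrays, against 11.49 and 11.92 on the DPF- arrays, and a change of -0.32 (SE 0.21, limma adjusted p = 0.906). In both genes the first DPF+ array lay between the DPF- arrays, so the groups overlapped and only the second DPF+ array was low.

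In the other direction, RPL7L1, a relative of RPL7, had log2 levels of 9.07 and 9.48 on the DPF+ arrays, against 9.12 and 8.93 on the DPF- arrays, and a change of 0.25 (SE 0.21, limma adjusted p = 0.928). RPS2, which lines the mRNA entry of the small subunit, had 11.53 and 11.91 on the DPF+ arrays, against 11.66 and 11.55 on the DPF- arrays, and a change of 0.12 (SE 0.20, limma adjusted p = 0.952). Both overlapped between the groups, and in both the second DPF+ array was the high one. RPL19, a protein of a bridge between the subunits, had 12.70 and 12.85 on the DPF+ arrays, against 12.60 and 12.69 on the DPF- arrays. RPL14 had 11.69 and 11.72 on the DPF+ arrays, against 11.60 and 11.69 on the DPF- arrays, with the lower DPF+ and the higher DPF- array at the same value. Their changes were 0.13 (SE 0.13) and 0.06 (SE 0.14).

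Only 1 gene was higher on both DPF+ arrays than on both DPF- arrays, RPL19, where 11.2% of all tested probe sets were. RPS4Y1 was the only gene lower on both, with 11.58 and 11.65 on the DPF+ arrays, against 11.66 and 11.82 on the DPF- arrays, where 12.1% of all tested probe sets were. In either direction 3.17% of the ribosomal protein genes and 23.3% of all tested probe sets separated the groups. The 95% interval of the log2 change lay within ±1 for 59 of the 63 genes, against 66.0% of all tested probe sets. It lay within ±0.5 for 29 genes, against 4.57%.

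**Figure D3:**
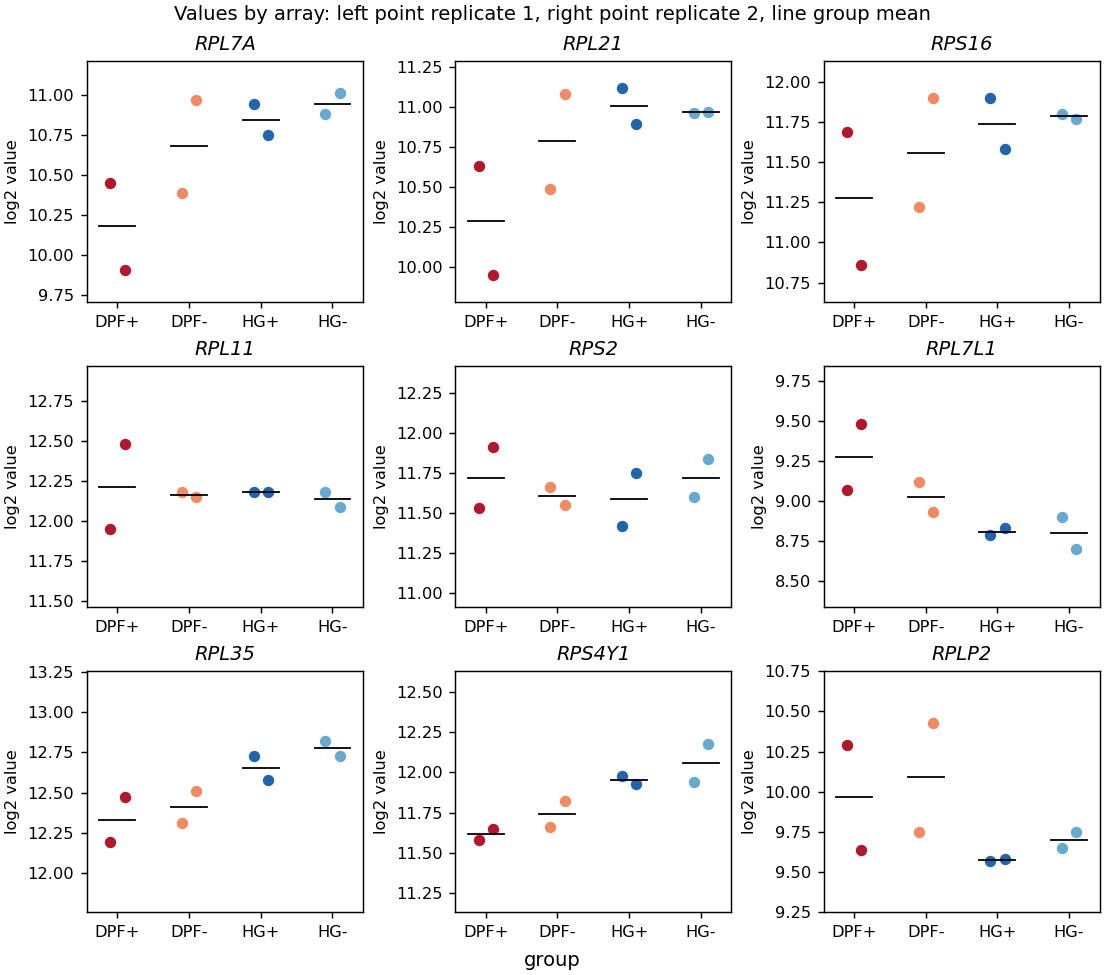
Log2 values of 9 genes by group, with replicate 1 as the left point, replicate 2 as the right point and a line at the group mean. RPL7A, RPL21 and RPS16 are low on the second DPF+ array, RPL11, RPS2 and RPL7L1 are high there, and RPL35 and RPS4Y1 are lower on all 4 DPF arrays than on all 4 HG arrays.

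In HG+ against HG-, the comparison within a single line, no ribosomal protein gene and no other probe set passed (0 of 63 genes, 0.0% of all tested). At an unadjusted p under 0.05 there were 0 of the 63 genes and 0.354% of all tested probe sets. The log2 changes were small, from -0.16 to 0.09, with a median of -0.08, against -0.01 over all tested probe sets. Of the 63 genes 49 (77.8%) were below 0, against 53.4% of all tested probe sets. Both subunits had a median of -0.08.

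The genes with the smallest p were lower in HG+. RPS28, at the mRNA exit of the small subunit, had log2 levels of 10.37 and 10.14 on the HG+ arrays, against 10.48 and 10.33 on the HG- arrays. Its neighbour RPS26 had 12.08 and 11.84 on the HG+ arrays, against 12.15 and 12.03 on the HG- arrays. Both overlapped between the groups, with changes of -0.15 (SE 0.18) and -0.13 (SE 0.15). RPL14 had 11.83 and 11.72 on the HG+ arrays, against 11.85 and 11.93 on the HG- arrays, and a change of -0.11 (SE 0.14). RPL32 had 12.75 and 12.67 on the HG+ arrays, against 12.80 and 12.85 on the HG- arrays, and a change of -0.12 (SE 0.14). For RPL14 and RPL32 both HG+ arrays lay below both HG- arrays, yet the limma adjusted p was 1 for all 4 genes.

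The changes above 0 were smaller. RPL10A had log2 levels of 11.84 and 11.75 on the HG+ arrays, against 11.75 and 11.67 on the HG- arrays, with 1 array of each group at the same value, and a change of 0.09 (SE 0.16). RPL3 had 11.74 and 11.67 on the HG+ arrays, against 11.65 and 11.61 on the HG- arrays, and a change of 0.07 (SE 0.18). RPL37A and RPL11 had changes of 0.05 (SE 0.17) and 0.04 (SE 0.19), and their groups overlapped. RPL3 and RPL8 were the 2 genes higher on both HG+ arrays, where 10.7% of all tested probe sets were.

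Both HG+ arrays lay below both HG- arrays for 20 genes (31.7%), against 14.4% of all tested probe sets. They were RPL5, RPL6, RPL9, RPL12, RPL14, RPL22, RPL22L1, RPL23A, RPL27, RPL32, RPL34, RPL36, RPL36A, RPLP1, RPLP2, RPS7, RPS10, RPS14, RPS27A and RPS29. Since the genes move together, these are not 20 separate observations. Since only 2 genes separated DPF+ from DPF-, the count that separated both pairs, 0 of 63 against 3.47% of all tested probe sets in the same direction and 3.14% in opposite directions, carries little weight. The 95% interval of the log2 change lay within ±1 for all 63 genes, against 82.1% of all tested probe sets. It lay within ±0.5 for 31 genes, against 7.57%. Without the second HG+ array the median was -0.01.

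The difference between the DPF and HG contrasts was tested in the same fit. No ribosomal protein gene and no other probe set passed (0 of 63 genes, 0.0% of all tested), with 0 genes and 2.86% of all tested probe sets at an unadjusted p under 0.05. The median log2 difference was -0.02, against 0.04 over all tested probe sets, and 37 of the 63 genes (58.7%) were below 0, against 45.1%. The direction changed with the setting. There were 51 genes below 0 without the first DPF- array, 12 without the second DPF- array, and 7 with the RNA amount in the fit. The RNA amounts differed most between the DPF- replicates, so these settings partly rest on the same arrays. The part of the RNA amount was not tested. The smallest p belonged to RPL21 (-0.54, SE 0.39), RPS25 (-0.38, SE 0.33), RPL7A (-0.40, SE 0.36) and RPL4 (-0.33, SE 0.34), a protein in the wall of the exit tunnel. Above 0 these were RPS2 (0.25, SE 0.28), RPL14 (0.17, SE 0.20), RPL7L1 (0.24, SE 0.29) and RPL19 (0.15, SE 0.19). RPL4 had log2 levels of 11.52 and 11.04 on the DPF+ arrays, against 11.35 and 11.89 on the DPF- arrays, and 11.69 and 11.38 on the HG+ arrays, against 11.52 and 11.57 on the HG- arrays. The limma adjusted p of all 8 genes was 0.999. Only 4 of the 63 genes had a 95% interval within ±0.5, against 0.0786% of all tested probe sets. Differences of this size between the contrasts were thus mostly not resolved.

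DPF against HG compares the hens of the divergent lines with those of the single line, and handling that differed between them cannot be told apart from the source of the hens. No ribosomal protein gene passed, while 12.5% of all tested probe sets did, 3.48% higher and 9.0% lower in DPF. At an unadjusted p under 0.05 there were 7 genes (11.1%), against 29.7% of all tested probe sets. The log2 changes ran from -0.47 to 0.39 with a median of -0.13, against -0.08 over all tested probe sets, and 49 of the 63 genes (77.8%) were below 0, against 58.4%. An absolute log2 change of 0.5 or more was found in 0 of the 63 genes and in 26.5% of all tested probe sets. The large subunit had a median of -0.14 and the small subunit -0.09. Without the first DPF+ array 7 genes passed, where 20.6% of all tested probe sets did, and without the second DPF+ array 5 genes passed, where 38.1% did. Relative to the median of the tested probe sets on each array the median of the genes was -0.06 and that of all tested probe sets -0.02.

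**Figure D4:**
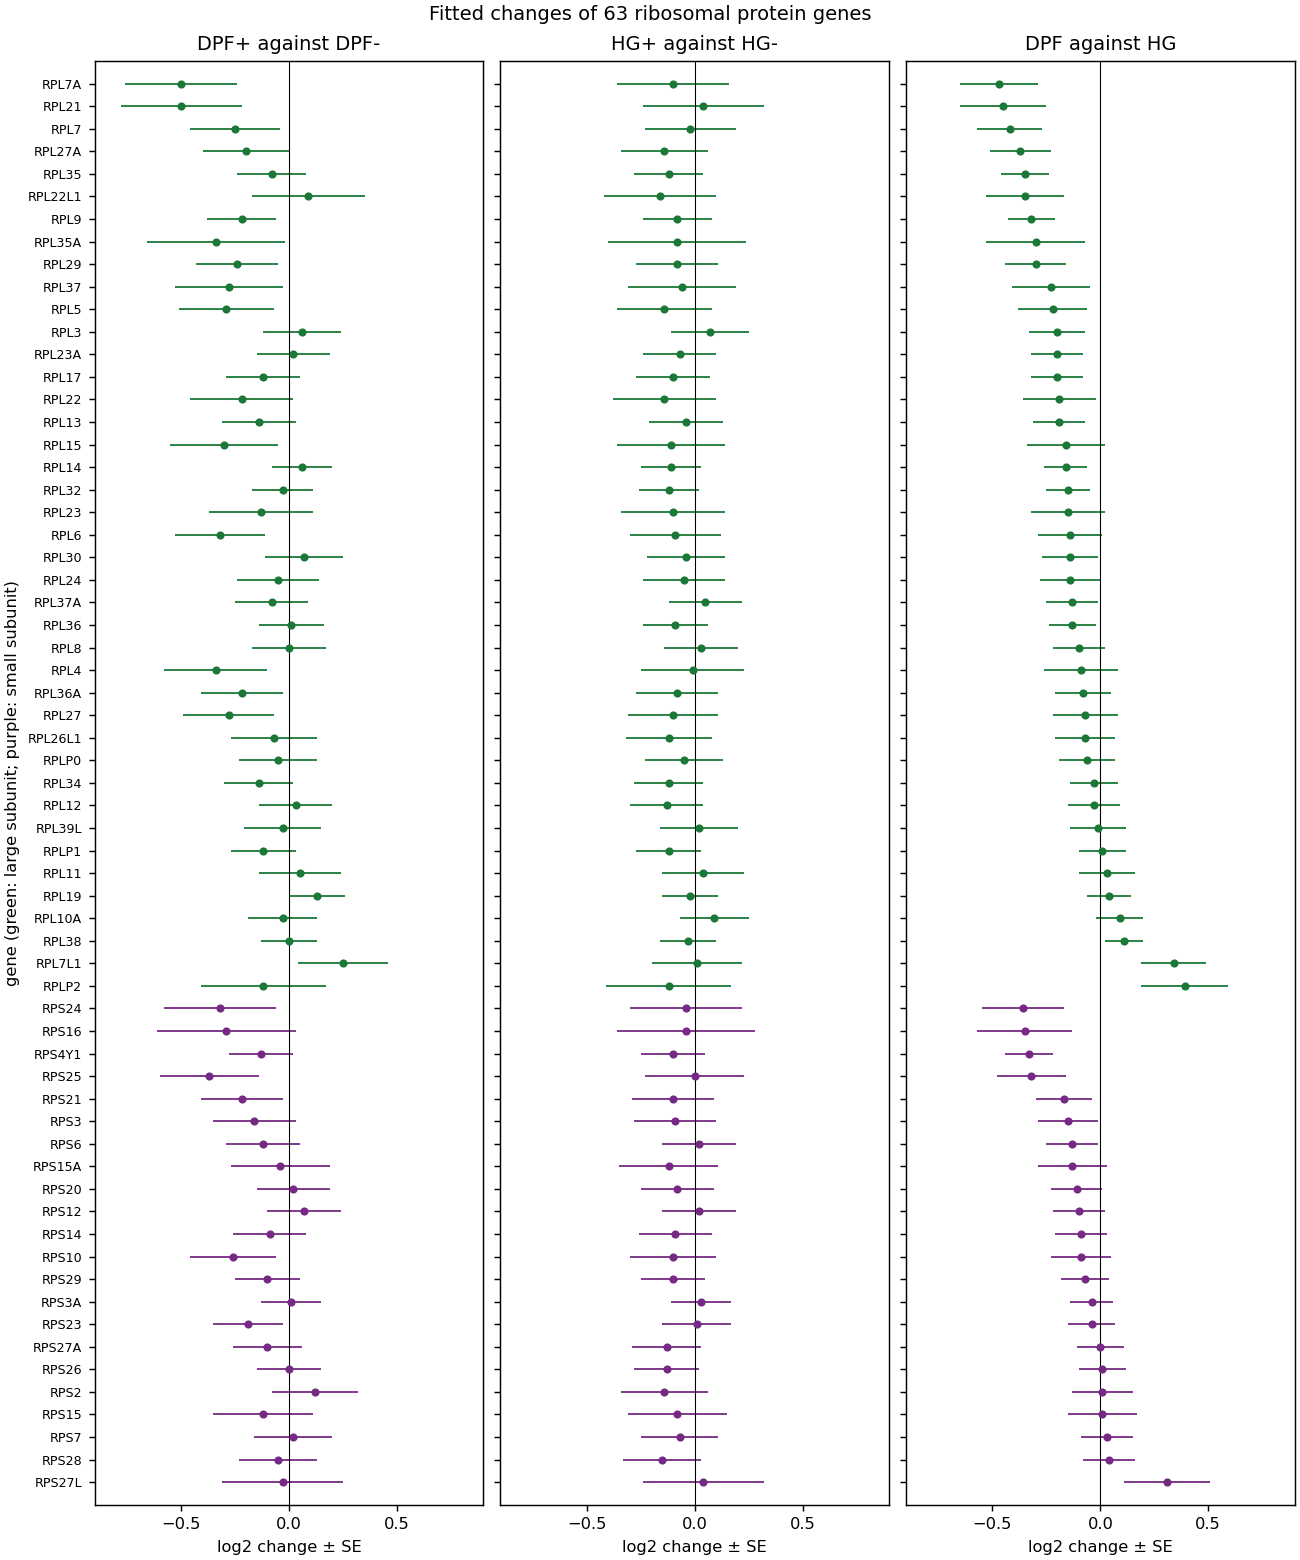
Fitted log2 changes with their standard errors for the 63 genes in DPF+ against DPF-, HG+ against HG- and DPF against HG, ordered by the last within the large subunit (green) and the small subunit (purple). Most points lie left of 0 in each panel, and none lies beyond -0.50 or 0.39.

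RPL35, a large subunit protein at the exit of the tunnel, had log2 levels of 12.19, 12.47, 12.31 and 12.51 on the DPF arrays (DPF+ before DPF-), against 12.73, 12.58, 12.82 and 12.73 on the HG arrays (HG+ before HG-). All 4 DPF arrays lay below all 4 HG arrays. The log2 change was -0.35 (SE 0.11, limma adjusted p = 0.0855), with a 95% interval from -0.61 to -0.08. RPS4Y1, whose human namesake is the Y-linked copy of the small subunit protein RPS4 and which carries the synonyms RPS4 and RPS4X in the chicken gene table, had 11.58, 11.65, 11.66 and 11.82 on the DPF arrays, against 11.98, 11.93, 11.94 and 12.18 on the HG arrays. Here too the groups did not overlap, and the log2 change was -0.33 (SE 0.11, limma adjusted p = 0.0870), from -0.58 to -0.08.

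RPL9, a large subunit protein, had log2 levels of 11.94, 11.73, 11.92 and 12.19 on the DPF arrays, against 12.29, 12.17, 12.31 and 12.31 on the HG arrays. Its log2 change was -0.32 (SE 0.11, limma adjusted p = 0.0995). RPL7 had 11.03, 10.67, 10.88 and 11.31 on the DPF arrays, against 11.51, 11.26, 11.40 and 11.41 on the HG arrays, and a change of -0.42 (SE 0.15, limma adjusted p = 0.103). In both genes the second DPF- array reached the HG range and the other DPF arrays stayed below it. RPL7A averaged 10.43 ± 0.43 on DPF arrays and 10.90 ± 0.11 on HG arrays (SD, n = 4 each), a change of -0.47 (limma adjusted p = 0.133), and RPL27A had a change of -0.37 (limma adjusted p = 0.135).

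RPL7L1 was the only gene higher on all 4 DPF arrays, with log2 levels of 9.07, 9.48, 9.12 and 8.93, against 8.79, 8.83, 8.90 and 8.70 on the HG arrays. Its log2 change was 0.34 (SE 0.15, limma adjusted p = 0.160), from 0.01 to 0.68. RPLP2, a stalk protein, had 10.29, 9.64, 9.75 and 10.43 on the DPF arrays, against 9.57, 9.58, 9.65 and 9.75 on the HG arrays, and a change of 0.39 (SE 0.20, limma adjusted p = 0.243). Only the first DPF+ and the second DPF- array lay above the HG range. RPS27L, the paralogue of RPS27 and a p53 target in human cells, had 7.04, 6.52, 6.49 and 7.12 on the DPF arrays, against 6.56, 6.44, 6.58 and 6.35 on the HG arrays, with the same arrays high and a change of 0.31 (SE 0.20, limma adjusted p = 0.341). RPL38 had a change of 0.11 (SE 0.09, limma adjusted p = 0.467).

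The 2 genes below on all DPF arrays, RPL35 and RPS4Y1, and the 1 above, RPL7L1, compare with 16.5% and 8.30% of all tested probe sets. The 95% interval lay within ±0.5 for 40 of the 63 genes, against 17.7% of all tested probe sets, and within ±1 for all 63. The 3' minus 5' difference and single cell type markers moved with this comparison, and their part was not tested. Of 10 stroma markers 1 passed the filter, the collagen gene COL1A2. Its log2 change was -3.77, equal to the lowest over all tested probe sets, and it passed 5%. The log2 of the summed list lay between 6.32 and 7.01 on DPF arrays, against 8.31 to 9.09 on HG arrays. With the other stroma markers below the filter, this sum does not show a shift of the list as a whole. Of the 12 granulosa markers 1 passed 5%, where 12.5% of all tested probe sets did. This was GATA4, at 4.83 ± 0.49 on DPF arrays and 5.46 ± 0.05 on HG arrays (SD, n = 4 each, limma adjusted p = 0.0425). INHBA (-1.23) and STAR (-1.04) were lower in DPF and INHA (0.42) and FST (0.40) higher, none of them passing. Of the 12 markers 7 were below 0, with a median log2 change of -0.10, against -0.08 over all tested probe sets. The endothelial marker CDH5, under 4 in DPF, averaged 2.62 ± 0.09 on DPF arrays and 4.03 ± 0.42 on HG arrays (limma adjusted p = 0.0110). It passed the filter through the HG arrays only, and its HG mean was near the filter level of 4. Its p belongs to the measured means and rests on values below the filter. The other 4 endothelial markers were below the filter. The 1 red blood cell marker that was tested had a log2 change of -0.68 and passed 5%.

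The stalk of the large subunit, which recruits the elongation factors, is built from RPLP0, RPLP1 and RPLP2. RPLP0, its base, had log2 levels of 12.08 and 12.20 on the DPF+ arrays, against 11.98 and 12.41 on the DPF- arrays, and 12.25 and 12.16 on the HG+ arrays, against 12.17 and 12.35 on the HG- arrays. RPLP1 had 11.85 and 11.75 on the DPF+ arrays, against 11.82 and 12.02 on the DPF- arrays, and 11.80 and 11.79 on the HG+ arrays, against 11.83 and 11.99 on the HG- arrays. The changes in DPF against HG were -0.06 (SE 0.13) for RPLP0 and 0.01 (SE 0.11) for RPLP1, next to 0.39 for RPLP2. RPLP2 spread widely in both DPF groups, with SDs of 0.46 and 0.48 (n = 2 each), and little in HG+ and HG- (0.01 and 0.07). The differences among these mRNAs were not tested.

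RPL5 and RPL11 carry 5S rRNA into the large subunit and, in mammals, bind MDM2 when ribosome assembly fails. RPL5 had log2 levels of 10.77 and 10.39 on the DPF+ arrays, against 10.61 and 11.13 on the DPF- arrays, and 10.91 and 10.83 on the HG+ arrays, against 10.96 and 11.06 on the HG- arrays. RPL11 had 11.95 and 12.48 on the DPF+ arrays, against 12.18 and 12.15 on the DPF- arrays, and 12.18 and 12.18 on the HG+ arrays, against 12.18 and 12.09 on the HG- arrays. The pair went opposite ways on the second DPF+ array, which was the lowest for RPL5 and the highest for RPL11. In DPF+ against DPF- their log2 changes were -0.29 (SE 0.22) and 0.05 (SE 0.19), and in DPF against HG -0.22 (SE 0.16) and 0.03 (SE 0.13), none past the threshold.

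Among the paralogues, RPL22 had log2 levels of 11.29 and 10.62 on the DPF+ arrays, against 11.01 and 11.35 on the DPF- arrays, and 11.22 and 11.15 on the HG+ arrays, against 11.23 and 11.42 on the HG- arrays. RPL22L1, its relative, had 8.84 and 8.60 on the DPF+ arrays, against 8.27 and 8.99 on the DPF- arrays, and 8.90 and 8.99 on the HG+ arrays, against 9.17 and 9.04 on the HG- arrays. Both were lower on the second than on the first DPF+ array, and in DPF against HG they had changes of -0.19 (SE 0.17) and -0.35 (SE 0.18). RPL26L1 and RPL39L carry the synonyms RPL26 and RPL39 in the chicken gene table, so they may stand for the core genes, and their changes in DPF against HG were -0.07 (SE 0.14) and -0.01 (SE 0.13). RPS6, the small subunit protein that S6 kinases phosphorylate, had 11.88 and 11.71 on the DPF+ arrays, against 11.74 and 12.10 on the DPF- arrays, and 12.09 and 11.91 on the HG+ arrays, against 11.99 and 11.97 on the HG- arrays. Its changes were -0.12 (SE 0.17) in DPF+ against DPF-, 0.02 (SE 0.17) in HG+ against HG- and -0.13 (SE 0.12) in DPF against HG.

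Groups of proteins by place in the ribosome gave no call. The 7 tested proteins around the exit tunnel had median log2 changes of -0.07 in DPF+ against DPF-, -0.07 in HG+ against HG- and -0.09 in DPF against HG. The 6 tested proteins along the mRNA channel had -0.07, -0.11 and -0.01. The laminin receptor protein RPSA, a small subunit protein, stands in the annotation under the symbol RPSAP58 and was not counted. It averaged 10.97 ± 0.22 on DPF arrays and 11.42 ± 0.09 on HG arrays (SD, n = 4 each), a change of -0.46 (limma adjusted p = 0.0716). RACK1, the signalling scaffold on the small subunit, averaged 10.66 ± 0.18 on DPF arrays and 11.03 ± 0.13 on HG arrays, a change of -0.37 (limma adjusted p = 0.0923).

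Some genes were read by several probe sets. Of the 139 probe sets of the 66 genes, 95 were tested, and 13 genes had several with a mean log2 level of at least 8. In 11 of these 13 genes all probe sets gave the second DPF+ array the same direction against the first, higher for RPL11, RPS2, RPL10A and RPL19 and lower for RPL29, RPL24, RPL9, RPS7, RPS15A, RPL4 and RPS25. For DPF- all probe sets were higher on the second array in 10 genes, lower in 2 (RPL11 and RPS2) and divided in 1 (RPL10A). The split between the replicates was thus seen by more than 1 probe set of these genes, which still share the same RNA. In several genes, such as RPL19, RPL29 and RPS15A, the probe set names differ only in their ending. Such probe sets may share a target sequence and probes, so their agreement is not independent. For the log2 change itself, the sign differed among probe sets of a gene in 2 of the 13 genes in DPF+ against DPF-, in 1 in HG+ against HG-, in 7 in the difference between them and in 5 in DPF against HG.

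**Figure D5:**
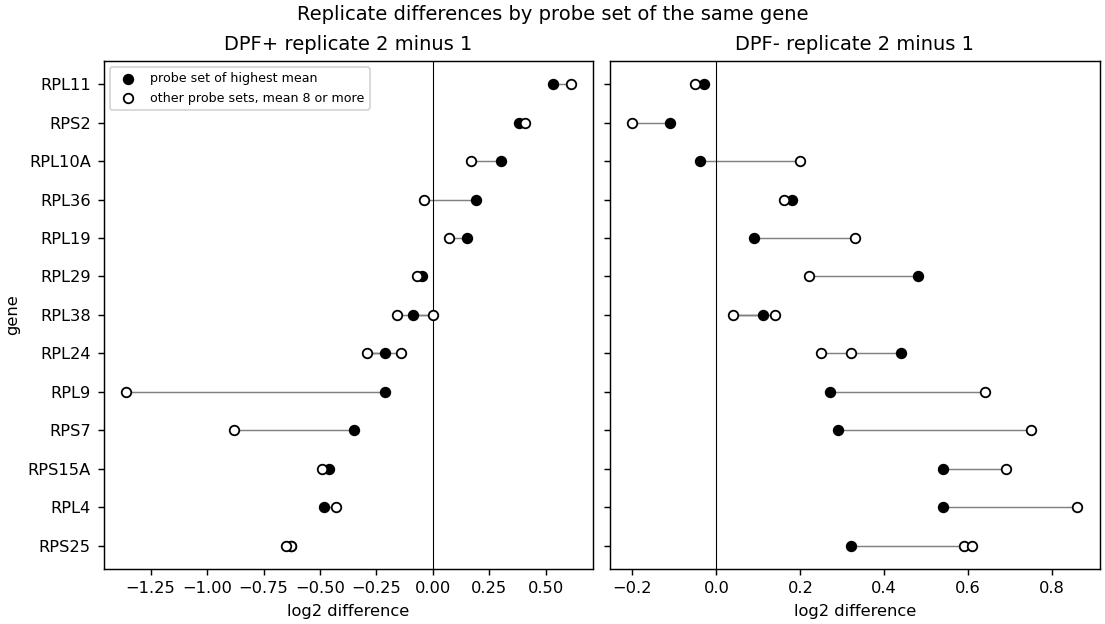
For the 13 genes with several probe sets of mean 8 or more, the log2 difference of replicate 2 minus replicate 1 is drawn for DPF+ (left) and DPF- (right), filled for the probe set of highest mean and open for the others. Probe sets of a gene lie mostly on the same side of 0, and RPL9 shows the widest gap in DPF+.

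RPL21 was the gene whose probe sets disagreed in whether they passed. Its brightest probe set, described above, had a log2 change of -0.45 in DPF against HG (SE 0.20, limma adjusted p = 0.175). A dimmer one had log2 levels of 4.25, 3.65, 3.87 and 3.30 on the DPF arrays, against 5.34 to 6.0 on the HG arrays (limma adjusted p = 0.00419). With 3 of the DPF arrays under 4, it was at least 3.03-fold lower in DPF, counted from a log2 level of 4. Another had means of 3.33 ± 0.36 on DPF arrays and 4.14 ± 0.30 on HG arrays (SD, n = 4 each), at least 1.10-fold lower. All 4 of its DPF arrays and 2 of its HG arrays were under 4, so its limma adjusted p of 0.0409 rests on values below the filter. Both dimmer probe sets passed the filter mainly or only through the HG arrays. They were the 2 called in DPF against HG among the 32 tested probe sets that were not the brightest of their gene, where 12.5% of all tested probe sets were called.

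The 16 other genes on the list of mRNAs with an oligopyrimidine start were all tested, and 0 passed in any of the 4 contrasts, where 12.5% of all tested probe sets passed in DPF against HG and 0.0% in the others. Their median log2 changes were -0.08 in DPF+ against DPF-, -0.01 in HG+ against HG- and -0.17 in DPF against HG. The elongation factor EEF1G stood apart, with log2 levels of 6.26 ± 1.20 on DPF arrays and 4.89 ± 0.41 on HG arrays (SD, n = 4 each) and a change of 1.38 (limma adjusted p = 0.0604). It had 7.78 and 6.37 on the DPF+ arrays, 4.88 and 6.02 on the DPF- arrays and 4.49 to 5.45 on the HG arrays. The DPF and HG arrays thus overlapped, and its change in DPF+ against DPF- was 1.62 (limma adjusted p = 0.706). Of 58 ribosome assembly genes 44 were tested and 0 passed, with median log2 changes of 0.14, 0.05 and -0.13 in these 3 contrasts, against 0.02, -0.01 and -0.08 over all tested probe sets. Their smallest p in DPF against HG belonged to UTP15 (-0.58, limma adjusted p = 0.0593), a factor of early pre-rRNA processing.

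Among 13 tested genes of mTOR and MYC signalling, 2 passed, both in DPF against HG, a share near the 12.5% of all tested probe sets. MYCN, a transcription factor that drives ribosome production, averaged 5.38 ± 0.58 on the DPF arrays, against 4.22 ± 0.53 on the HG arrays, a log2 change of 1.17 (limma adjusted p = 0.0388). The DPF and HG arrays overlapped, with 4.89 on the second DPF+ array and 5.01 on the first HG- array. Both HG+ arrays, at 3.94 and 3.92, were under 4. TSC2, an inhibitor of mTOR, was under 4 on all DPF arrays, with 3.54 ± 0.18, against 4.46 ± 0.10 on the HG arrays, and passed the filter through the HG arrays only (limma adjusted p = 0.00856, which belongs to the measured means). Counted from a log2 level of 4, the change was -0.46 or lower, a bound. MYC had 6.90 ± 0.56 on DPF arrays and 7.46 ± 0.15 on HG arrays (limma adjusted p = 0.213).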

How the data were processed

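RNA of 8 hen samples was measured on Affymetrix chicken arrays, 2 for each of DPF+, DPF-, HG+ and HG-. Per the submitters' processing notes the authors used GCRMA (version not stated), and the table they deposited holds 1 log2 level per probe set and array. GCRMA normalizes between arrays, so shifts common to most probe sets are reduced. The sources used here give no scan date and do not say whether the 8 arrays were processed together. The number of arrays limits the precision.

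Control probe sets (96) and probe sets with blank values (8) were left out, and a log2 value of at least 4 on at least 2 arrays left 12725 of 38535. Symbols came from the annotation given with the series, and all 66 gene identifiers matched the RefSeq table of GCF_016699485.2 (bGalGal1.mat.broiler.GRCg7b), which was used for names only. Of the chosen probe sets 15 end in _s_at, 26 in _a_at and 2 in _x_at, types that can read several transcripts, so near-identical copies may be mixed.

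Group means were fitted on all arrays with limma 3.58.1 in R 4.3.3 (lmFit, eBayes with intensity trend, two-sided, 4 residual and 3.68 prior degrees of freedom). Benjamini-Hochberg adjustment ran over all tested probe sets with a 5% threshold. The fit was checked on simulated data with independent noise, for DPF against HG only. The simulated shifts were larger than any change of these genes, so the check does not show whether small changes would be found. Tables and drawings were made with Python 3.11.15. The genes and lists were chosen with earlier results of these data known. Genes named with values are the 4 with the smallest p per direction in each contrast, the 5 highest and lowest means, the stalk, the 5S pair, paralogues and RPS6. RPL8, RPS16, RPS24 and the replicate differences were chosen after their values were seen. Replicate numbers are from the labels and say nothing about shared birds or days. The alternatives were other filters, normalizations, variance models, covariates and probe sets, and each array left out.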

Additional observations from a re-analysis of the deposited data

How the results depend on the processing

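The count of ribosomal protein genes called stayed at 0 in DPF+ against DPF-, HG+ against HG- and their difference under every alternative run, while the count over all probe sets in DPF+ against DPF- was 1070 without DPF+ replicate 1, 10 unfiltered and 0 in the fit of all arrays. In DPF against HG it was 3 with the RNA amount as a covariate (RPL27A, RPL7, RPL7A), 2 in a 2-group model (RPL35, RPS4Y1), and 1 with the mean of a gene's probe sets or with its second probe set (RPL21 in both). With arrays left out it ran from 0 to 7, with 7 without DPF+ replicate 1 (RPL21, RPL7, RPL7A, RPL7L1, RPL9, RPS24, RPS25) and 5 without DPF+ replicate 2 (RPL23A, RPL3, RPL35, RPLP2, RPS4Y1), where 20.6% and 38.1% of all probe sets passed. The count over all probe sets, 1588, ran from 549 under the stricter filter to 2228 in the 2-group model, with 1045 unfiltered, 574 without moderation, 870 with the replicate block, and 174 to 4846 with arrays left out. With arrays left out, the median log2 change ran from -0.29 to 0.05 in DPF+ against DPF-, -0.12 to -0.01 in HG+ against HG-, -0.22 to 0.12 in their difference and -0.20 to -0.03 in DPF against HG. With the RNA amount as a covariate it was 0.02 in DPF+ against DPF- (28 of 63 genes below 0, against 47), -0.25 in HG+ against HG- and 0.24 in the difference. With an array left out, its group holds 1 array only, so those counts of calls carry little weight. The causes were not tested.

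Of 32 gene results under 720 alternatives, 696 kept direction and call. Many of these could not turn a sign. Filters, variance models, the replicate block and leaving out an array outside the contrast keep the log2 change as fitted. A gene with a single tested probe set also kept it under the probe set alternatives. The count of 696 is therefore not a measure of robustness. In DPF+ against DPF- the sign turned for RPL21 with its second probe set (0.36) and for RPS2 with the RNA amount (-0.07) and without DPF+ replicate 2 (-0.07; 0.31 without DPF+ replicate 1). In HG+ against HG- it turned for RPL10A with the mean of its probe sets (-0.03) or the second (-0.13) and for RPL37A with the RNA amount (-0.11) or without HG+ replicate 1 (-0.03; 0.14 without HG+ replicate 2). In the difference it turned with the RNA amount for RPL21 (0.15), RPS25 (0.12), RPL7A (0.19), RPL4 (0.29) and RPS2 (-0.13), and for RPL21 with its second probe set (0.01). In DPF against HG it turned with the second probe set for RPL9 (0.22) and RPL38 (-0.08). The 3' minus 5' difference ran from 0.45 to 0.62 with an array left out.

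The replicate block gave 0 called ribosomal protein genes in each contrast. Every group holds both replicate numbers, so the block cannot move a log2 change, and the medians stayed at -0.10, -0.08, -0.02 and -0.13. It changed no call of these genes, while the calls over all tested probe sets in DPF against HG went from 1588 to 870. Over 12725 probe sets the deviations of same-numbered arrays had r of -0.52 between DPF+ and DPF-, -0.19 between HG+ and HG-, 0.51 between DPF+ and HG+ and 0.12 between DPF- and HG-, so the numbers did not pair the arrays within the contrasts. The crossed pairing, chosen after seeing the data and run for DPF+ against DPF- and HG+ against HG- only, gave 0 calls in both. Centring on each array's tested probe sets, added in the same way for DPF against HG, gave 0 calls among these genes too.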
